A study of Homo sapiens with 6 samples.

Results

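The genes described here are the 9 that make, store, take back and break down catecholamines, out of 53492 genes in the deposited tables. They were chosen by name, taking each row whose gene name equalled Th, Ddc, Dbh, Pnmt, Gch1, Slc18a1, Slc18a2, Slc6a2 or Maoa, and each name stood on 1 row. RNA sequencing of polyadenylated RNA had been done on 6 libraries, 3 from cells transfected with a plasmid for enhanced green fluorescent protein joined to CCNB1IP1 (pCS2-eGFP-CCNB1IP1) and 3 from cells transfected with the plasmid for the fluorescent protein alone (pCS2-eGFP-N). Those groups are called GFP-CCNB1IP1 and GFP. Both are labelled SH-SY5Y, a human neuroblastoma line, and the labels give neither the time after transfection nor the share of cells that took up a plasmid. CCNB1IP1, also called HEI10, is a ubiquitin ligase that binds cyclin B1 and acts in meiotic crossing over.

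Catecholamines are made from tyrosine in steps. Tyrosine hydroxylase (Th) makes L-DOPA with the help of the cofactor tetrahydrobiopterin, aromatic L-amino acid decarboxylase (Ddc) makes dopamine, dopamine beta-hydroxylase (Dbh) makes noradrenaline inside vesicles, and phenylethanolamine N-methyltransferase (Pnmt) makes adrenaline. GTP cyclohydrolase 1 (Gch1) begins the synthesis of the cofactor. Vesicular monoamine transporters (Slc18a1, or VMAT1, and Slc18a2, or VMAT2) load the amines into vesicles, the noradrenaline transporter (Slc6a2) takes released amine back into the cell, and monoamine oxidase A (Maoa) oxidises it. Sympathetic neurons and many neuroblastomas make noradrenaline and carry the genes for it.

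The tables hold mouse genes. All 53492 identifiers had the mouse form and 0 matched the 62700 identifiers of a human gene table, so every level below is the value listed for a mouse gene in libraries labelled as a human line. Whether the cells were of mouse, or human reads were counted against mouse genes, was not tested. In the second case a level, or a listed 0, would also depend on how alike the human and mouse sequences are. Mouse Ccnb1ip1 was near 0 throughout, with 7.36e-08, 0.133 and 0.191 FPKM in GFP-CCNB1IP1 replicates 1 to 3 and 0.0334, 0.125 and 0.0698 FPKM in GFP replicates 1 to 3, and the introduced sequence was not analysed here. The groups are therefore known by their labels alone. Levels are in FPKM, a count of sequenced fragments corrected for transcript length and library depth, so that different genes can be set side by side. Read totals are not part of the tables, and depth was gauged from the deposited confidence bounds. Relative to a GFP average of 1, it was 0.743 to 1.04 in the GFP-CCNB1IP1 libraries and 0.95 to 1.06 in the GFP libraries. GFP-CCNB1IP1 replicate 2 was the shallowest library and also stood apart in macrophage genes. In it Csf1r, a macrophage growth factor receptor gene, was at 2.05 FPKM and Adgre1, the gene of the macrophage antigen F4/80, at 0.665 FPKM. The other 5 libraries had at most 0.075 FPKM of Csf1r and listed Adgre1 at 0. The bounds imply only 13.1 fragments of Csf1r and 1.64 of Adgre1 in GFP-CCNB1IP1 replicate 2. Whether replicates were grown as separate cultures is not said in the labels, and the p-values below therefore measure the spread between these libraries, which may be technical.

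The label of a neuroblastoma line was set against marker genes. Of 10 sympathetic or noradrenergic markers, 9 had a mean of at least 1 FPKM over the 6 libraries, and the one that did not was Dbh itself. The transcription factor genes Phox2a and Hand2, which in mice are needed for sympathetic neurons to form and to turn on Th and Dbh, had means of 104.8 and 116.8 FPKM in the GFP-CCNB1IP1 libraries and of 107.1 and 128.2 FPKM in the GFP libraries. Other cell types left little trace. Means were under 1 FPKM for 6 of 7 midbrain dopamine neuron markers, 5 of 6 Schwann cell markers, 6 of 7 fibroblast markers, 5 of 6 adrenal cortex markers and 6 of 6 immune markers. Slc6a3, Lmx1a and En1 of the midbrain list, Lum of the fibroblast list and Cyp11b1, Cyp17a1 and Hsd3b1 of the adrenal cortex list were at 0 in every library.

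The catecholamine genes were very uneven in level. Slc18a2 and Gch1 together made up 93.5 to 95.3% of the summed FPKM of the 9 genes in each library, Th was far below them, Ddc and Dbh were near or below 1 FPKM, Slc18a1 was barely measured, and Pnmt, Slc6a2 and Maoa were listed at 0 in all 6 libraries. By mean FPKM over the 6 libraries the order was Slc18a2 (39.0 FPKM), Gch1 (32.2 FPKM), Th (2.47 FPKM), Ddc (0.962 FPKM), Dbh (0.666 FPKM) and Slc18a1 (0.168 FPKM). Among the 26841 genes above 0 in any library Slc18a2 ranked 1930th and Gch1 2440th, whereas Th ranked 11340th and Dbh 14074th. Ddc and Dbh overlapped in level in both groups, and Dbh and Slc18a1 overlapped in the GFP-CCNB1IP1 libraries. The ranges of the other neighbours did not overlap in either group, although Slc18a2 and Gch1 all but met in the GFP-CCNB1IP1 libraries. An exact 0 in such a table can be a failed estimate. The deposited status of an estimate was other than OK for 1 row of GFP replicate 3 and for 0 rows of every other library. Of 20 ubiquitously used genes looked up for this purpose 0 were at 0 in any library, which cannot show whether Pnmt, Slc6a2 or Maoa failed.

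**Figure D1:**
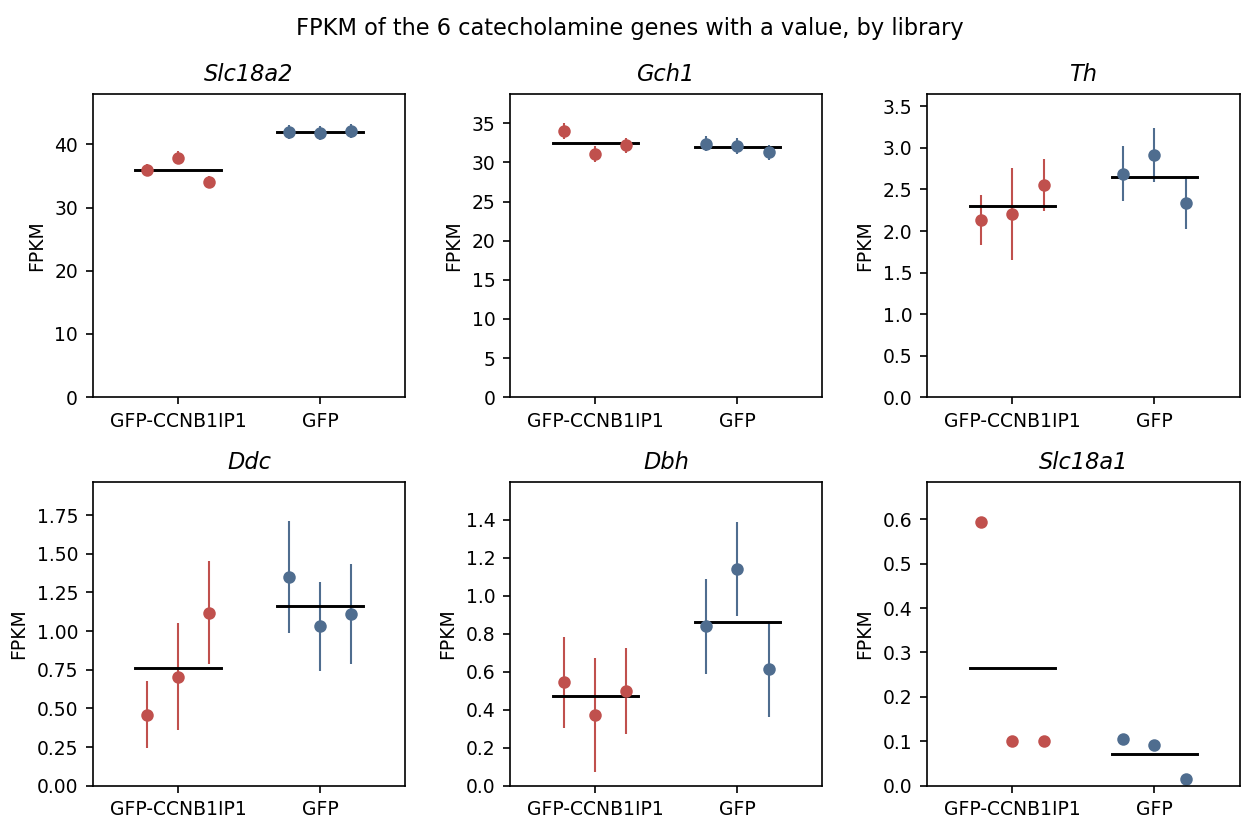
FPKM of the 6 catecholamine genes with a value, on linear axes that start at 0 and differ between panels. Points are libraries (replicates 1 to 3 from left to right), with GFP-CCNB1IP1 in red on the left and GFP in blue on the right; thin bars are 1 deposited standard error, not drawn for Slc18a1, and black lines are group means. The Slc18a2 panel shows GFP libraries at 41.8 to 42.1 FPKM above all GFP-CCNB1IP1 libraries, while the groups overlap for Gch1, Th, Ddc and Slc18a1.

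The comparison of the groups asked whether any step of catecholamine handling differed in the cells labelled GFP-CCNB1IP1. None of the 6 genes with a value passed the test, and the 3 listed at 0 could not be tested. The smallest p-value was that of the vesicular transporter gene Slc18a2, at 0.858 times the GFP mean, and the enzyme gene Dbh was also below every GFP library, at 0.546 times the GFP mean but on few fragments. Gch1 was at 1.02 times the GFP mean. By limma on log2(FPKM + 1) with p-values adjusted over all genes by the Benjamini-Hochberg method, 0 of the 3 catecholamine genes with a mean of at least 1 FPKM (Slc18a2, Gch1 and Th) passed an adjusted p of 0.05, against 0.00756% of all 13231 genes tested, which is 1 gene. Ddc, Dbh and Slc18a1 were read from a second fit of all 26841 genes above 0, in which 0 of them and 0.00% of all genes passed. At an unadjusted p under 0.05 there were 2 of the 9, both lower. Slc18a2 was so in the first fit, where 11.4% of all genes had such a p, 5.77% lower and 5.59% higher. Dbh was so in the second fit, where 8.14% of all genes had such a p and 4.18% were lower. In bulk libraries fewer cells that express a gene and less RNA per cell cannot be told apart.

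Slc18a2 (ENSMUSG00000025094.9, chromosome 19, 59249328 to 59284444, on a build that the sources used here do not name) had 36.0, 37.9 and 34.1 FPKM in GFP-CCNB1IP1 replicates 1 to 3, and 42.0, 41.8 and 42.1 FPKM in GFP replicates 1 to 3. Every GFP-CCNB1IP1 library was below every GFP library. The means were 36.0 ± 1.92 FPKM in the GFP-CCNB1IP1 libraries and 42.0 ± 0.125 FPKM in the GFP libraries (SD, n = 3 each). On the log2(FPKM + 1) scale the difference was -0.22 (SE 0.0538, 95% interval -0.34 to -0.0924; limma, adjusted p = 0.27). Its p-value ranked 186th of 13231. Groups that do not overlap, with GFP-CCNB1IP1 lower, were found for 8.90% of the genes tested. The deposited bounds imply 1252.9 to 1401.3 fragments behind the values of the GFP-CCNB1IP1 libraries and 1474.0 to 1537.1 behind those of the GFP libraries. The 3 GFP values lay closer together than their own counting error, since the deposited standard error of each was at least 1.07 FPKM and their SD was 0.125 FPKM. Without GFP-CCNB1IP1 replicate 2 the difference was -0.25 (limma, adjusted p = 0.361); over all 17 alternatives the adjusted p was 0.236 to 0.489.

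Slc18a1, the gene of the other vesicular transporter, which in rodents is known mostly from chromaffin and other endocrine cells, was at 0.593, 0.0999 and 0.101 FPKM in GFP-CCNB1IP1 replicates 1 to 3 and at 0.105, 0.0919 and 0.0157 FPKM in GFP replicates 1 to 3. One library, GFP-CCNB1IP1 replicate 1, was above the rest, and the groups overlapped. The bounds imply only 1.89 fragments for that library and under 1 for each of the others. Its locus (ENSMUSG00000036330.13, chromosome 8, 69490363 to 69541887) overlaps by 590 bases that of Atp6v1b2, a vacuolar proton pump subunit gene at 48.7 to 54.7 FPKM in the GFP-CCNB1IP1 libraries and 48.0 to 53.5 FPKM in the GFP libraries, so how reads at that end were divided is uncertain. The difference was 0.22 on the log2(FPKM + 1) scale (SE 0.157; limma, adjusted p = 0.775), and 0.0398 without GFP-CCNB1IP1 replicate 1. Slc18a2 was thus the vesicular monoamine transporter gene with a usable level in these libraries.

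Slc6a2, which clears noradrenaline from outside the cell, was listed at 0 in all 6 libraries, and so was Slc6a3, the dopamine transporter gene. The organic cation transporter genes Slc22a2 and Slc22a3, whose products also carry monoamines, were listed at 0 too. The plasma membrane monoamine transporter gene Slc29a4 was the 1 amine uptake gene of the list above 1 FPKM, with 14.7, 13.1 and 14.0 FPKM in GFP-CCNB1IP1 replicates 1 to 3 and 16.5, 15.7 and 13.1 FPKM in GFP replicates 1 to 3. The groups overlapped (log2 difference -0.0999, SE 0.0924; limma, adjusted p = 0.725).

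Th (ENSMUSG00000000214.12, chromosome 7, 142446489 to 142484865) had 2.13, 2.21 and 2.55 FPKM in GFP-CCNB1IP1 replicates 1 to 3 and 2.69, 2.92 and 2.34 FPKM in GFP replicates 1 to 3. GFP replicate 3 lay below GFP-CCNB1IP1 replicate 3, so the groups overlapped. Means were 2.3 ± 0.224 FPKM in the GFP-CCNB1IP1 libraries and 2.65 ± 0.291 FPKM in the GFP libraries (SD, n = 3 each), with a log2 difference of -0.15 (SE 0.11, 95% interval -0.4 to 0.11; limma, adjusted p = 0.659). Without GFP replicate 2, the highest library, the log2 difference was -0.0931. From 15.9 to 81.3 fragments stood behind these values, the fewest in GFP-CCNB1IP1 replicate 2. The deposited standard error was at most 0.554 FPKM in the GFP-CCNB1IP1 libraries and 0.329 FPKM in the GFP libraries, against an SD between libraries of 0.224 FPKM in the GFP-CCNB1IP1 libraries and 0.291 FPKM in the GFP libraries.

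Ddc (ENSMUSG00000020182.17, chromosome 11, 11764101 to 11848144), whose enzyme also makes serotonin, had 0.459, 0.706 and 1.12 FPKM in GFP-CCNB1IP1 replicates 1 to 3 and 1.35, 1.03 and 1.11 FPKM in GFP replicates 1 to 3. GFP-CCNB1IP1 replicates 1 and 2 were below the other 4 libraries, and GFP-CCNB1IP1 replicate 3 lay among the GFP libraries. The bounds imply 4.21 to 11.2 fragments in the GFP-CCNB1IP1 libraries and 11.6 to 13.9 in the GFP libraries. The log2 difference was -0.31 (SE 0.157, 95% interval -0.7 to 0.0846; limma, adjusted p = 0.68). It was -0.18 without GFP-CCNB1IP1 replicate 1 and -0.45 without GFP-CCNB1IP1 replicate 3, where the unadjusted p was under 0.05, and the adjusted p over the 17 alternatives was 0.513 to 0.796 (limma).

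Dbh (ENSMUSG00000000889.9, chromosome 2, 27055245 to 27073212) had 0.543, 0.371 and 0.498 FPKM in GFP-CCNB1IP1 replicates 1 to 3, against 0.838, 1.14 and 0.613 FPKM in GFP replicates 1 to 3. The groups did not overlap, and the gap between the highest GFP-CCNB1IP1 library and the lowest GFP library was smaller than 1 deposited standard error, which was at least 0.246 FPKM in the GFP libraries. Of all genes above 0, 6.38% were lower without overlap in this way. The means were 0.471 ± 0.0889 FPKM in the GFP-CCNB1IP1 libraries and 0.862 ± 0.262 FPKM in the GFP libraries (SD, n = 3 each), and the log2 difference was -0.33 (SE 0.12, 95% interval -0.63 to -0.033; limma, adjusted p = 0.567). Only 1.52 to 5.21 fragments are implied in the GFP-CCNB1IP1 libraries and 6.04 to 21.3 in the GFP libraries. Without GFP-CCNB1IP1 replicate 2, which had the lowest value, the log2 difference was -0.28. The unadjusted p was above 0.05 in 5 of the 6 fits that left out a library, all but the one without GFP replicate 3, and the adjusted p over the 17 alternatives was 0.473 to 0.727 (limma). Pnmt, the gene of the last enzyme and a marker of adrenaline-making cells, was listed at 0 in all libraries.

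Gch1 (ENSMUSG00000037580.11, chromosome 14, 47391352 to 47426870) had 34.0, 31.1 and 32.2 FPKM in GFP-CCNB1IP1 replicates 1 to 3 and 32.4, 32.1 and 31.3 FPKM in GFP replicates 1 to 3. The values of both groups lay in one narrow range. Between 870.6 and 1103.4 fragments stood behind each, and the log2 difference was 0.0209 (SE 0.0535; limma, adjusted p = 0.912). The 95% interval of that difference ran from -0.1 to 0.14. A small gene model within its locus reached 3.62 FPKM in the GFP-CCNB1IP1 libraries and 2.07 FPKM in the GFP libraries.

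Ratios taken within a library do not depend on scaling between libraries. Slc18a2 stood at 1.06, 1.22 and 1.06 times the FPKM of Gch1 in GFP-CCNB1IP1 replicates 1 to 3 and at 1.3, 1.3 and 1.34 times in GFP replicates 1 to 3, without overlap. Th stood at 3.93, 5.95 and 5.12 times the FPKM of Dbh in GFP-CCNB1IP1 replicates 1 to 3 and at 3.21, 2.57 and 3.82 times in GFP replicates 1 to 3, where the closest libraries of the groups were nearly level. The ratio of Slc18a2 to Th ran from 13.4 to 17.2 in the GFP-CCNB1IP1 libraries and from 14.3 to 17.9 in the GFP libraries, so the groups overlapped. These ratios were picked after the levels were seen and carry no test.

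**Figure D2:**
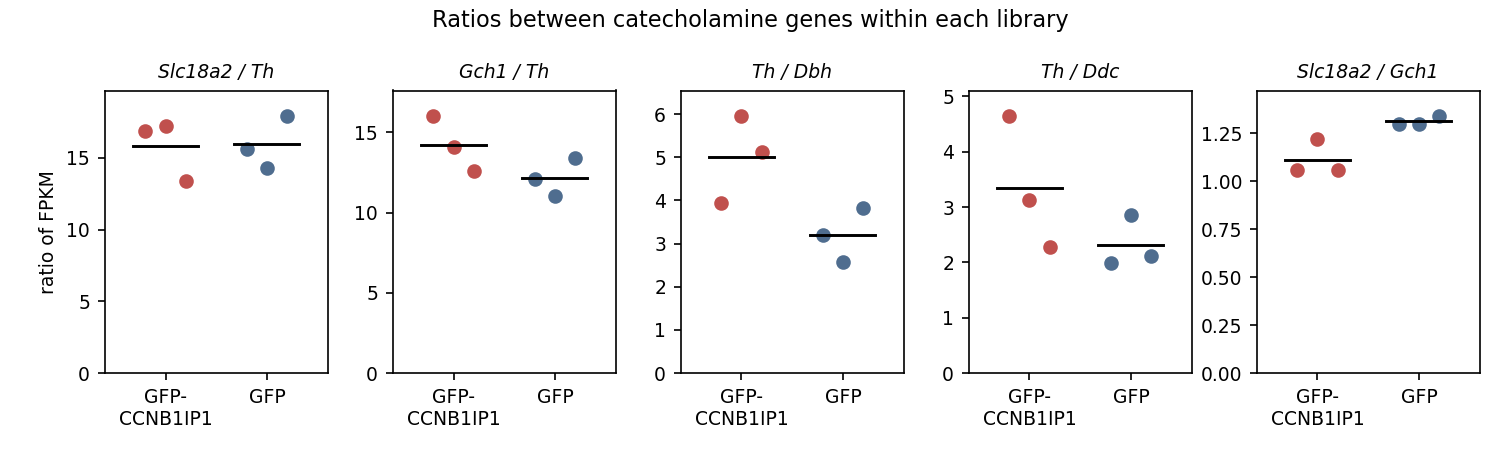
Ratios of FPKM between catecholamine genes within each library, on linear axes that start at 0 and differ between panels. Points are libraries (replicates 1 to 3 from left to right), GFP-CCNB1IP1 in red on the left and GFP in blue on the right, and black lines are group means. The groups are apart for Slc18a2 over Gch1 and for Th over Dbh and overlap in the other panels.

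Of the 6 catecholamine genes with a value, 4 had a negative and 2 a positive log2 difference, with a median of -0.18. The median was 0.00371 for all genes tested and -3.52e-07 for all genes above 0, the fit that Ddc, Dbh and Slc18a1 came from. The median of the 6 says nothing of the 3 listed at 0. Some genes of the sympathetic marker list, which includes Th and Dbh, also lay below the GFP libraries. The summed level of that list was 838.1 to 931.6 FPKM in the GFP-CCNB1IP1 libraries and 1013.5 to 1107.9 FPKM in the GFP libraries. Of its 10 markers 9 were above the filter, 7 with a negative and 2 with a positive log2 difference. Among these, 3 were apart from the GFP libraries and lower, against 8.90% of all genes tested. Those 3 were Ret, a growth factor receptor gene, and Chgb and Chga, the genes of chromogranins that fill the same vesicles, with means of 125.5, 359.1 and 79.4 FPKM in the GFP-CCNB1IP1 libraries, against 149.6, 467.9 and 89.2 FPKM in the GFP libraries. Chgb alone made up most of the gap between the groups in the summed level. None of the 3 passed (limma, smallest adjusted p = 0.176). Their part in the level of Slc18a2 was not tested. The summed level of the Schwann cell list was 4.11 to 4.5 FPKM in the GFP-CCNB1IP1 libraries and 3.24 to 3.89 FPKM in the GFP libraries, with the defining gene Sox10 at means of 0.133 and 0.0956 FPKM in the GFP-CCNB1IP1 and GFP libraries. Star of the adrenal cortex list was apart and lower, at 1.76 FPKM in the GFP-CCNB1IP1 libraries and 2.14 FPKM in the GFP libraries. The part of these lists in the levels of the catecholamine genes was not tested.

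The genes around the pathway were taken from 7 lists with 73 names, of which 72 stood in the tables, Slc7a5 was not analysed here, and 39 had a mean of at least 1 FPKM. None of the 39 passed (limma). At an unadjusted p under 0.05 there were 4, 3 higher and 1 lower, against 11.4% of all genes tested.

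Tetrahydrobiopterin genes were all expressed. The 7 genes beside Gch1 had means from 5.6 to 68.1 FPKM, 6 had a positive and 1 a negative log2 difference, and 0 passed (median log2 difference 0.0331). The smallest p-value was that of Pcbd2, a gene of cofactor recycling, at 11.0 ± 1.37 FPKM in the GFP-CCNB1IP1 libraries and 9.1 ± 2.07 FPKM in the GFP libraries (SD, n = 3 each; limma, adjusted p = 0.548). Pts, which acts after Gch1 in making the cofactor, was at 8.76 and 7.79 FPKM in the GFP-CCNB1IP1 and GFP libraries. The groups overlapped for both of these genes.

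Breakdown genes were either listed at 0, low or abundant. Maoa, Maob and the aldehyde dehydrogenase gene Aldh1a1 were listed at 0 in all 6 libraries, so neither monoamine oxidase gene was measured above 0. Aldh2, a mitochondrial aldehyde dehydrogenase gene, was at 38.9 ± 3.56 and 40.6 ± 0.481 FPKM in the GFP-CCNB1IP1 and GFP libraries (SD, n = 3 each). Rnls, the renalase gene, was at 1.29 and 0.966 FPKM in the same order. The phenol sulphotransferase gene Sult1a1 and the methyltransferase gene Tomt had means under 1 FPKM. Of the 5 breakdown genes tested besides the members, 0 passed.

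Regulators of the tyrosine hydroxylase protein held the 3 genes that were higher at an unadjusted p under 0.05, and 0 of the 8 tested passed. Ywhaz, a 14-3-3 protein gene whose product binds phosphorylated tyrosine hydroxylase, had 194.7, 196.3 and 195.1 FPKM in GFP-CCNB1IP1 replicates 1 to 3 and 175.3, 178.6 and 173.8 FPKM in GFP replicates 1 to 3. All GFP-CCNB1IP1 libraries were above all GFP libraries, with a log2 difference of 0.15 (SE 0.038; limma, adjusted p = 0.27). Ywhag, another 14-3-3 gene, averaged 193.4 and 180.1 FPKM in the GFP-CCNB1IP1 and GFP libraries, and Mapkapk2, whose kinase can phosphorylate tyrosine hydroxylase, 14.8 and 13.3 FPKM, also without overlap (limma, adjusted p = 0.413 and 0.409). Groups apart with GFP-CCNB1IP1 higher were found for 8.70% of all genes tested. These proteins act on many partners.

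Of the 6 transport and supply genes tested, Slc29a4 among them, 0 passed. Slc31a1, the gene of a copper importer that serves enzymes such as dopamine beta-hydroxylase, was at 14.2 ± 0.903 and 14.5 ± 0.483 FPKM in the GFP-CCNB1IP1 and GFP libraries (SD, n = 3 each), and Slc16a10, an aromatic amino acid transporter gene, at 1.39 and 1.66 FPKM. Receptors for catecholamines were nearly silent: 12 of 14 had means under 1 FPKM. Adra2b, an alpha-2 adrenergic receptor gene, had 1.42, 1.47 and 1.24 FPKM in GFP-CCNB1IP1 replicates 1 to 3 and 1.68, 1.63 and 1.39 FPKM in GFP replicates 1 to 3, and Drd4, a dopamine receptor gene, averaged 1.06 and 0.947 FPKM in the GFP-CCNB1IP1 and GFP libraries. Both overlapped between groups (limma, adjusted p = 0.754 and 0.896).

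**Figure D3:**
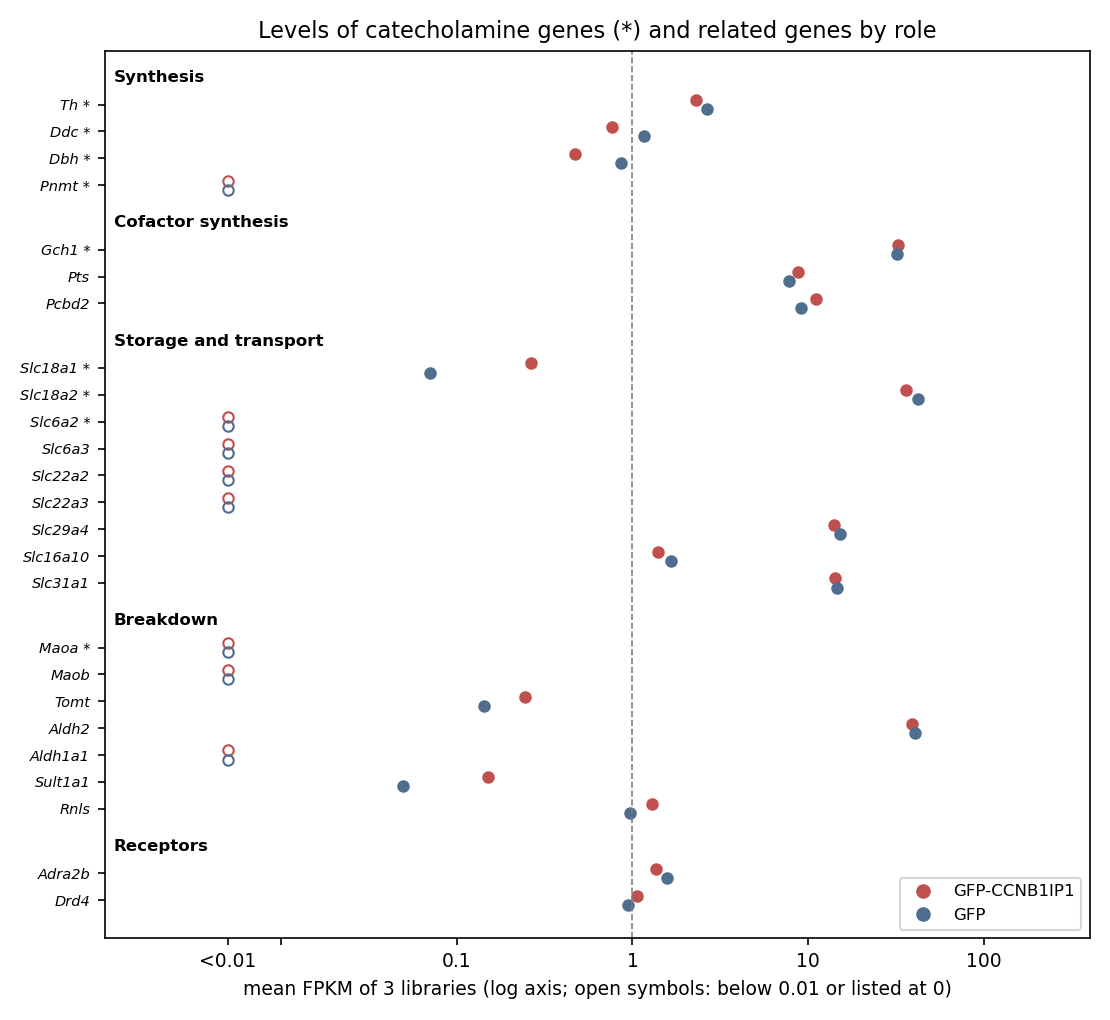
Mean FPKM of 3 libraries on a log axis for the 9 catecholamine genes (starred) and the genes of 4 related lists that the text names, grouped by role, with GFP-CCNB1IP1 in red above GFP in blue for each gene. Open symbols are means below 0.01 FPKM or listed at 0, and the dashed line marks 1 FPKM; Slc18a2, Gch1 and the cofactor genes Pts and Pcbd2 lie to its right, while Pnmt, Slc6a2 and Maoa lie at the floor.

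Genes of other transmitters were set beside these levels, since Ddc, Slc18a2 and Maoa also serve serotonin. Tph1 and Tph2, which make the serotonin precursor, averaged 0.71 and 1.39 FPKM in GFP-CCNB1IP1 cells and 1.09 and 1.35 FPKM in GFP cells, below Th in both groups. Hdc, the histamine-making decarboxylase gene, had 2.37, 2.53 and 2.58 FPKM in GFP-CCNB1IP1 replicates 1 to 3 and 2.51, 1.77 and 1.44 FPKM in GFP replicates 1 to 3, close to Th in level, and overlapped between groups (limma, adjusted p = 0.518). Genes for making acetylcholine and taking up choline were near 0, with Chat at 0.0407 and 0.0373 FPKM in the GFP-CCNB1IP1 and GFP libraries and Slc5a7 listed at 0. Ache, which breaks acetylcholine down, was at 24.2, 22.9 and 22.5 FPKM in GFP-CCNB1IP1 replicates 1 to 3 and at 26.4, 26.7 and 24.5 FPKM in GFP replicates 1 to 3, apart but not past the test (log2 difference -0.15, SE 0.0591; limma, adjusted p = 0.404). It was the 1 lower gene among the 4 with an unadjusted p under 0.05.

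The transcription factor genes of the sympathoadrenal lineage were mostly abundant. Of the 7 above the filter 5 had a negative and 2 a positive log2 difference, 0 were apart between the groups and 0 passed. Hand2 had the smallest p-value (log2 difference -0.13, SE 0.0748; limma, adjusted p = 0.556), and Gata2 was at 124.8 ± 3.36 and 120.1 ± 5.57 FPKM in the GFP-CCNB1IP1 and GFP libraries (SD, n = 3 each). Insm1 was at 15.5 and 16.5 FPKM. Hand1 and Tfap2b had means under 1 FPKM. Within a library Phox2a stood at 41.2 to 51.5 times the FPKM of Th in the GFP-CCNB1IP1 libraries and 34.1 to 45.5 times in the GFP libraries.

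**Figure D4:**
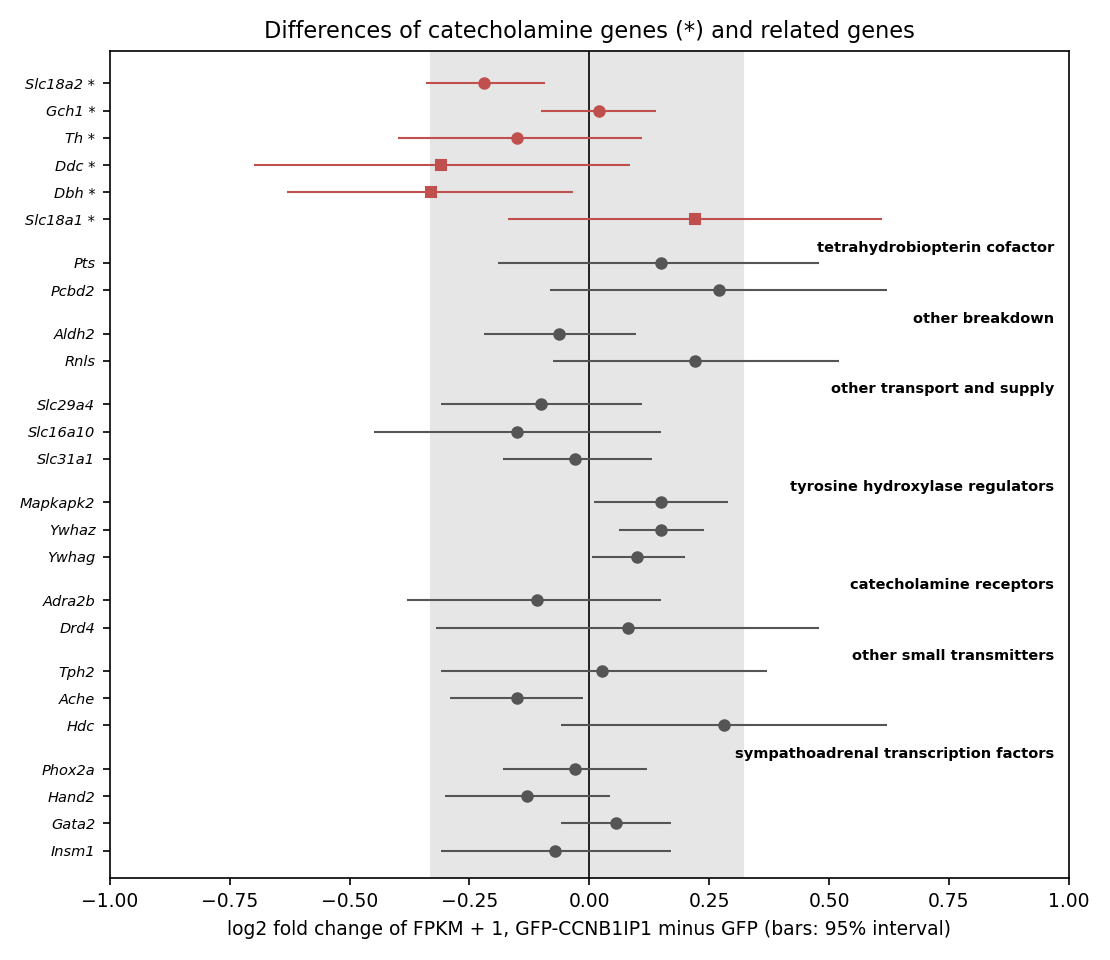
Log2 fold change of FPKM + 1, GFP-CCNB1IP1 minus GFP, with 95% limma intervals for the 6 catecholamine genes with a value (red, starred, squares for those taken from the 26841-gene fit) and the related genes above the filter that the text names (grey). The shaded band holds the middle 95% of all 13231 genes tested, -0.33 to 0.32. Among the catecholamine genes the intervals of Slc18a2 and Dbh lie below 0. Among the related genes that of Ache lies below 0 and those of Ywhaz, Ywhag and Mapkapk2 lie above 0. None of the genes drawn passed after adjustment over all genes.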

How the data were processed

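Gene tables of 6 libraries were used, 3 per group, with the group and replicate number taken from the sample titles. Each library has 1 deposited table with gene FPKM and its confidence bounds, per the file headers; the submitters' processing notes name HISAT2 and Cufflinks, with no version. Libraries were poly(A)-selected and randomly primed, per the labels' protocols. The sources used here give no strand setting, build or annotation, so reads of overlapping genes may not be separable. Locus starts, taken to be 0-based, are printed 1-based.

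Rows of the same identifier were summed. The number of fragments implied by a value is the squared ratio of FPKM to standard error, where the upper bound lies 2 standard errors up; they cover counting error only and need not be whole, so no count test was run. Relative depth is the median, over 2244 genes with 5 to 50 such fragments in every library, of fragments per FPKM. Genes with a mean FPKM of at least 1 were tested on log2(FPKM + 1), with no further scaling, by limma 3.58.1 (R 4.3.3), two-sided, without a block and with its trend of variance on level, with Benjamini-Hochberg adjustment over all genes tested. This scale understates the change of low genes. For genes under the filter, the fit used every gene with any value above 0. With 3 libraries a side, exact permutation (two-sided) reaches p = 0.1 at best and was not used. The test was also run on simulated data. Changes were placed there only in genes well above the levels of Th, Ddc, Dbh and Slc18a1, and were larger than any log2 difference of the members. That run therefore does not tell how the test treats the members. The members and lists were chosen with earlier results of these data known. All members are named. From each related list the 3 smallest p-values above the filter and any gene with a mean under 1 FPKM could be named. Phox2a, Tph2, Ret, Chgb, Chga, Atp6v1b2, Star, Csf1r, Adgre1 and the 20 ubiquitous genes were chosen after values were seen. Some list genes are counted but not reported here by name. No sequences are shown, since no mouse sequence was used here.

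The 17 alternatives changed the pseudocount (0.1 or 5), the filter (none, or a mean of 5 FPKM), the scaling (quantiles, ratios to a median library, or TPM) and the model (replicate block, robust prior, no trend). Others dropped loci shorter than 300 bases or 1 library at a time.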

Additional observations from a re-analysis of the deposited data

How the results depend on the processing

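With any of the 17 alternatives 0 of the 9 catecholamine genes passed, and the counts of the 7 related lists were 0 in all 119 combinations of list and alternative. The sign of the log2 difference held for Slc18a2, Th, Ddc, Dbh and Slc18a1 in all 17. Changing the filter, the replicate block, the robust prior and leaving out the trend cannot alter that difference, so they say nothing of its sign. For Ddc, Dbh and Slc18a1 the changes of filter also left the test itself as it was. The log2 difference of Gch1 turned without GFP-CCNB1IP1 replicate 1 (-0.0131), and over the libraries left out in turn it ranged from -0.0131 to 0.0507. The median of the 6 genes with a value was -0.0832 with a pseudocount of 5, which shrinks differences of low genes by construction. The 1 call among all genes was lost (0 calls) under the replicate block, without the trend, without loci under 300 bases, without a filter and at a pseudocount of 5. Dropping a library gave 0 to 4 calls: 4 when GFP replicate 1 was dropped, 2 for GFP-CCNB1IP1 replicate 2 and 0 for GFP replicates 2 and 3. The cause was not tested. With the replicate number as a block, Slc18a2 had an adjusted p of 0.381 and Dbh of 0.71 (limma). The numbers were not taken to pair the libraries, since the labels do not say that they mark a shared culture or day. Deviations of same-numbered libraries, looked at afterwards, correlated at 0.0226, -0.0093 and -0.0107 across genes, and not every library correlated best with its own number. The values of Ddc, Dbh and Slc18a1 rest on few implied fragments, at most 21.3 in any library, and whether depth kept a difference from passing was not tested.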
